A study of Homo sapiens with 12 samples.

Results

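Gene expression in HCT116 cells, a human colon cancer line, was compared between 96 h and 12 h of treatment with C646, a small molecule that inhibits the histone acetyltransferases CBP (CREBBP) and p300 (EP300). The compared items were the rows of the array table, 1 row per gene name, with signal above background in at least 1 of the 2 C646 columns, which were 15902 of 34687 rows. The groups used were HCT116 cells given C646 at 10 uM for 12 h or 96 h and HCT116 cells given the solvent, DMSO at 0.05%, for 12 h or 96 h. HCT116 cells given ICG-001 at 10 uM (a small molecule that binds CBP and blocks its contact with β-catenin) and PANC1 cells, a human pancreatic cancer line, given C646 or DMSO at the same doses and times were used for a side-by-side reading. Each group was 1 column of signal, which was the authors' mean of 2 independent replicates, so the replicates' own spread is not known here and every difference below is a size without a test. By the study's methods, cultures for the 12 h collection were denser when the compounds were added than cultures for the 96 h collection, which were passaged during treatment, and medium with compound was renewed daily in between. Time, density and passage therefore cannot be told apart within either ratio, and the DMSO ratio was set beside the C646 ratio because both hold all 3.

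CBP and p300 acetylate histones at enhancers and promoters and are brought to DNA by many transcription factors, among them β-catenin with TCF7L2 in the WNT pathway, p53, and the hypoxia-inducible factor. C646 competes with acetyl-CoA for binding to both enzymes. In growing cells E2F factors drive the genes of DNA replication before S phase, a separate program drives the genes of mitosis later in the cycle, and CDKN1A (p21) and its relatives restrain the kinases that move cells between these phases.

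A row was above background when its signal passed the peak of the signal distribution of its column by a set multiple of the SD of the background values, a limit of 146.7 to 146.9 in the HCT116 columns. A ratio is the 96 h signal over the 12 h signal on the log2 scale, and a row was called, and described as having risen or fallen, at a ratio of at least 1.5-fold. Between 14566 and 14808 of the 34687 rows passed the limit in an HCT116 column. Among 17894 rows under the limit in the 4 C646 and DMSO columns, the log2 ratios had an SD of 0.072 with C646 and 0.072 with DMSO. At the edge of the comparison, the row LOC442448 entered with signals of 146.8 and 137.9 with C646 at 12 h and 96 h, and an unnamed row stayed out with 144.7 and 146.9. The background was left in the signal, so ratios of dim genes understate their change. Of the colon epithelial markers EPCAM, KRT8, KRT18, KRT19, KRT20, CDH1, CDX2 and ELF3 were above the limit with C646, and CDX1, VIL1, CEACAM5 and CDH17 were not. Of the fibroblast, leukocyte and endothelial markers, only COL1A1 and CD68 passed, 1 of 8 and 1 of 8, and of 5 endothelial markers 0 did.

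More genes separated 96 h from 12 h with C646 than with DMSO, and most moved the same way in both. With C646, 1210 of the 15902 rows were called (7.61%), 650 higher (4.09%) and 560 lower (3.52%) at 96 h. With DMSO, 519 of the same rows were called (3.26%), 259 higher (1.63%) and 260 lower (1.64%). At least 2-fold rises numbered 112 with C646 and 22 with DMSO, and at least 2-fold falls 62 and 27. Of the 259 rows higher with DMSO, 196 (75.7%) were higher with C646 too, which were 30.2% of the 650. Of the 260 rows lower with DMSO, 190 (73.1%) were lower with C646 too, or 33.9% of the 560. A further 353 of the 650 risen rows and 301 of the 560 fallen rows moved 1.2 to 1.5-fold the same way with DMSO. That left 99 risen rows (15.2%) and 69 fallen rows (12.3%) whose DMSO ratio was under 1.2-fold either way, and 2 risen rows that went at least 1.2-fold down with DMSO. Across the 14612 rows above the limit in at least 1 column of each pair, the C646 and DMSO log2 ratios had a Pearson's r of 0.80 and a Spearman's rho of 0.75, which describes rows of 1 cell line normalized together and not independent replicates.

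**Figure D1:**
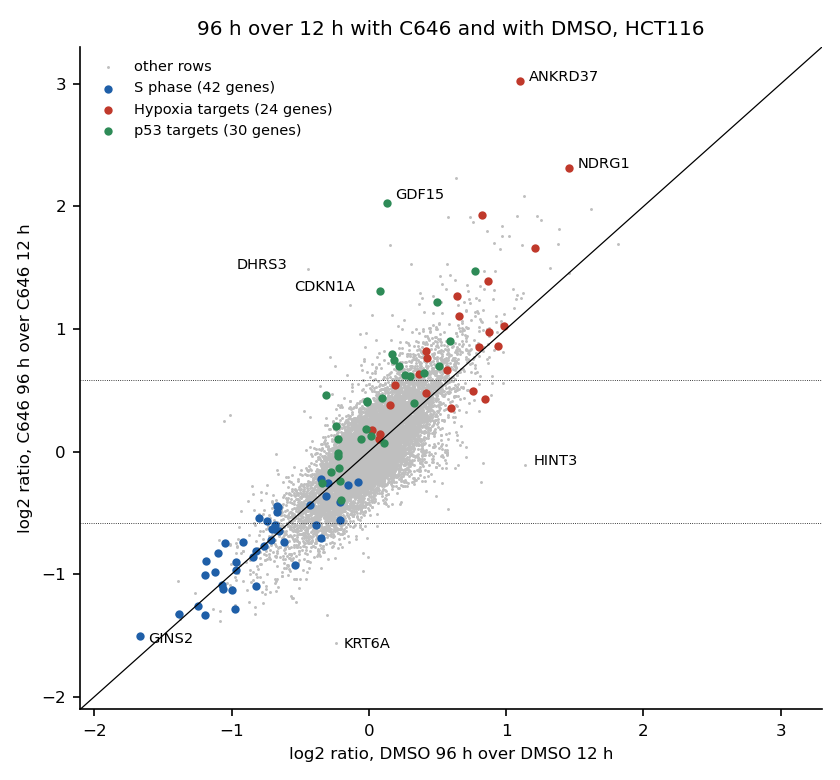
Log2 ratio of 96 h over 12 h with DMSO (x axis) against the same ratio with C646 (y axis) for 15902 rows of the HCT116 comparison, with 42 S phase genes, 24 hypoxia targets and 30 p53 targets in colour. The solid line marks equal ratios and the dotted lines mark 1.5-fold with C646. S phase genes lie along the line in the lower left, and ANKRD37, GDF15 and CDKN1A lie well above it.

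The genes of the 2 enzymes that C646 inhibits were not called. CREBBP read 502 with DMSO at 12 h, 481 with DMSO at 96 h, 493 with C646 at 12 h and 473 with C646 at 96 h, and EP300 193 with DMSO at 12 h, 183 with DMSO at 96 h, 164 with C646 at 12 h and 176 with C646 at 96 h, with log2 C646 ratios of -0.06 and 0.10. CTNNB1, which encodes β-catenin, read 367 at 12 h and 354 at 96 h with C646 against 611 and 547 with DMSO, and TCF7L2, its partner on DNA, 333 at 12 h and 410.2 at 96 h with C646 against 596 and 800.3 with DMSO. Both were thus lower with C646 than with DMSO at each time, with log2 ratios of C646 over DMSO at 12 h and 96 h of -0.73 and -0.63 (CTNNB1) and -0.84 and -0.96 (TCF7L2), and neither was called between the times. Among the 18 measured genes of the WNT complex and the acetyltransferases, 1 rose with C646 (5.56%, near the 4.09% of all rows). It was the nuclear receptor co-activator NCOA3, from 444 to 767, a log2 ratio of 0.79 against 0.42 with DMSO. KAT2B, another acetyltransferase, had a log2 ratio of 0.40 and the deacetylase HDAC1 of 0.16. Of 13 histone deacetylases measured 0 were called, which for so short a list is near the 7.61% of all rows.

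Genes of DNA replication fell together, with C646 and with DMSO by nearly the same median. Of 42 S phase genes above the limit, 29 fell at least 1.5-fold with C646 and 0 rose, against 3.52% and 4.09% of all rows, and their median log2 ratio was -0.74. With DMSO 31 of the 42 fell, with a median of -0.75, and the C646 ratio was above the DMSO ratio for 21 genes and below it for 21. Of 23 genes of replication licensing, 14 fell with C646 and 15 with DMSO, with medians of -0.63 and -0.69. In this bulk RNA, fewer cells in a phase and less RNA per cell cannot be told apart.

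GINS2, a subunit of the replicative helicase complex, read 2608 with DMSO at 12 h, 821 with DMSO at 96 h, 3071 with C646 at 12 h and 1083 with C646 at 96 h, which was a 2.84-fold fall with C646 and a 3.18-fold fall with DMSO. The helicase subunit MCM2 went from 1292 to 502 with C646 and from 1215 to 468 with DMSO. MCM10, which helps to load the polymerases, went from 1158 to 462 and from 838 to 316. In all 3 genes both 96 h columns lay below both 12 h columns, and the C646 and DMSO columns of the same time differed by no more than 0.55 in log2.

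CCNE2, the cyclin that opens S phase, read 566 at 12 h and 226 at 96 h with C646 and 476 and 182 with DMSO, with log2 ratios of -1.32 and -1.39. The helicase subunit MCM5 read 1535 at 12 h and 611 at 96 h with C646 and 1483 and 647 with DMSO, and MCM4 and MCM6 had log2 C646 ratios of -1.26 and -0.98 against -1.25 and -1.12 with DMSO. RRM2, which makes deoxynucleotides, had -1.09 against -1.07, and PCNA, the polymerase clamp, -0.77 against -0.76. UHRF1, which maintains DNA methylation at the fork, fell more with C646 (-1.28) than with DMSO (-0.98), and CHAF1B, which deposits histones on new DNA, fell less (-0.89 against -1.18). Outside these lists, POLE2, a subunit of a leading strand polymerase, went from 1438 to 586 with C646, and CTPS1 (CTPS in the table), which makes CTP, from 1021 to 419.5.

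The promoters of these genes are known for E2F sites, so the 250 bases before the start of each gene were searched for the words TTTCCCGC, TTTCGCGC, TTTGCCGC and TTTGGCGC on both strands, in the promoter sequences of RefSeq (GRCh38.p14). Of the S phase genes, 32 matched a promoter and 12 (37.5%) held at least 1 word, against 4.61% of the 9411 promoters matched to the comparison and 2.79% of all 27305. Among the 434 genes of the comparison with a word, 38 (8.76%) fell at least 1.5-fold with C646 and 30 (6.91%) with DMSO, while among the 8977 without a word 358 (3.99%) and 159 (1.77%) did. These counts include the S phase genes that prompted the search. Of the 12 with a word, 10 fell with C646 and 11 with DMSO, and of the 20 without a word 12 and 13 did. The contrast over the comparison therefore partly repeats the S phase result. The median log2 C646 ratio over the comparison was -0.07 with a word and 0.01 without. A match describes these letters in this window and not a bound factor. The promoters of GINS2 and UHRF1 are shown because both genes were among the largest falls and hold a word, which is in capitals as it reads on the strand of the gene and begins 31 bases before the start in GINS2, at chr16:85688955-85689204 on the minus strand, and 14 bases before it in UHRF1, at chr19:4909251-4909500 on the plus strand. The word TTTCCCGC is read here on the opposite strand, and the windows of MCM2 and MCM10, which were also among the largest falls, held none of the 4 words.
GINS2: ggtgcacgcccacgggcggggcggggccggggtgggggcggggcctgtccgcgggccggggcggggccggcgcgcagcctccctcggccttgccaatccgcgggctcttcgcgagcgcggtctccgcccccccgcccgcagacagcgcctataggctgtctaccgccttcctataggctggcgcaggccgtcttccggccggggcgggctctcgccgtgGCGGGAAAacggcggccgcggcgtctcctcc
UHRF1: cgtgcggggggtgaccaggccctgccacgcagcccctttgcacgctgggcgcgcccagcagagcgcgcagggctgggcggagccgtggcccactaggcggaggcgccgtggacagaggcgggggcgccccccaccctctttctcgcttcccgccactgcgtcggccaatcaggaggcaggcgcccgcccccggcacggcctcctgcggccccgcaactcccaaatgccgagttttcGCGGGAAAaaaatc

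Genes of mitosis did not follow the replication genes. Of 51 G2/M genes measured, 1 fell with C646, TMPO, a nuclear lamina protein, and 0 rose, against 3.52% and 4.09% of all rows. TMPO was also the 1 that fell with DMSO. The median log2 ratio of the 51 was 0.04 with C646 and -0.17 with DMSO, and the C646 ratio was the larger for 44. CENPA, the centromeric histone, read 612 with DMSO at 12 h, 534 with DMSO at 96 h, 487 with C646 at 12 h and 628 with C646 at 96 h. CCNB2, a mitotic cyclin, had log2 ratios of 0.29 with C646 and -0.17 with DMSO, NEK2, a centrosome kinase, 0.57 and 0.37, and TOP2A, which untangles chromosomes, 0.19 and -0.14. None of these 4 passed 1.5-fold. In their promoters the word TTTGAA, the core of the cell cycle homology region that marks late cycle genes, was held by 22 of 43 (51.2%) on either strand, against 8.24% over the comparison and 1 of 32 S phase genes (3.12%).

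Among the regulators of the cycle, CDKN1A, which encodes p21, was the one that separated C646 from DMSO most. It read 1864 with DMSO at 12 h, 1968 with DMSO at 96 h, 2042 with C646 at 12 h and 5072 with C646 at 96 h, and so rose 2.48-fold with C646 and 1.06-fold with DMSO. The C646 column at 96 h stood alone above the other 3. CDKN1C, a related inhibitor, rose from 219 to 391.8 with C646 and read 297 and 415 with DMSO, and CDKN1B (p27), CDKN2B and CDKN2D had log2 C646 ratios of 0.18, 0.53 and 0.52. Of 15 cyclins and cycle kinases or phosphatases, 4 fell with C646, CCNE1, CCNE2, CCND3 and CDC25A, and 1 rose, CDC25B. Over all rows 3.52% fell and 4.09% rose with C646. With DMSO 5 of the 15 fell, against 1.64% of all rows, and 0 rose. The median log2 ratio of the 15 was -0.40 with C646 and -0.51 with DMSO. CCND1, which starts the cycle and is a WNT target in colon cells, read 5857 at 12 h and 5718 at 96 h with C646 and 4164 and 4574 with DMSO, a log2 ratio of -0.03 against 0.14. Of 13 E2F and pocket protein genes, E2F2 fell with C646 (-1.16) and with DMSO (-1.27), E2F4 fell with C646 (-0.60, DMSO -0.06), and RBL2, a repressive pocket protein, rose (0.62, DMSO 0.30).

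**Figure D2:**
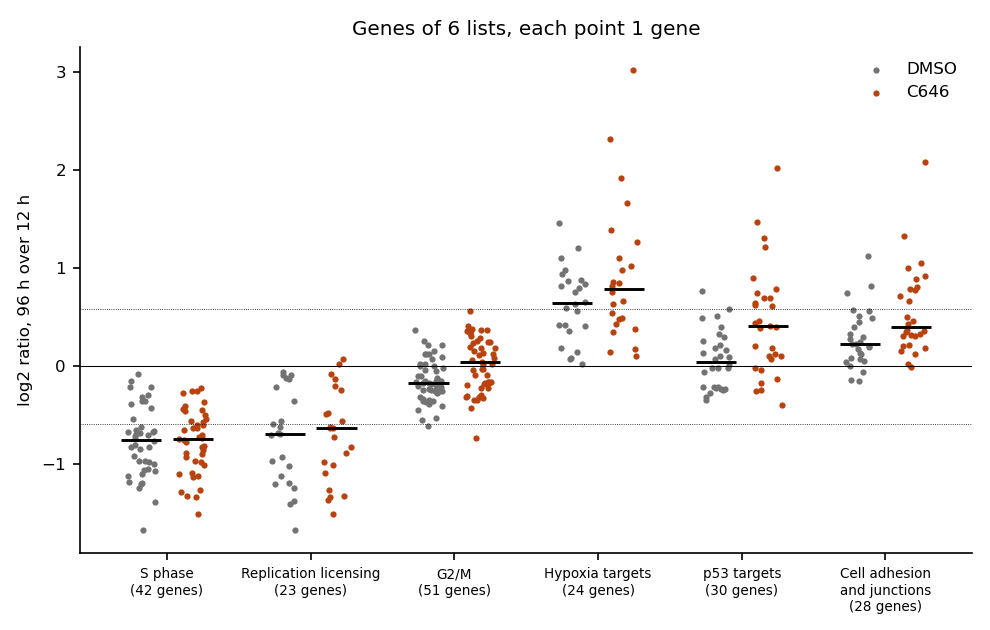
Log2 ratio of 96 h over 12 h for the genes of 6 lists with DMSO (grey) and with C646 (orange), where each point is 1 gene, the black bar is the median of the list and the dotted lines mark 1.5-fold. The medians of S phase genes coincide at -0.75 with DMSO and -0.74 with C646, while those of the p53 targets lie at 0.05 and 0.41.

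Genes of the hypoxia response held 3 of the 12 largest rises, ANKRD37, NDRG1 and ANGPTL4. Of 24 hypoxia targets measured, 15 rose with C646, against 4.09% of all rows, and 14 with DMSO, against 1.63%, and 0 fell in either. Their median log2 ratios were 0.79 and 0.65, so that the rise was shared. All 24 had a C646 ratio above 0, from 0.11 to 3.02, and for 20 of the 24 it was above the DMSO ratio. The 4 targets whose C646 ratio was at least 1.5-fold above their DMSO ratio were ANKRD37, ANGPTL4, NDRG1 and DDIT4.

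ANKRD37, a small ankyrin protein and a direct target of the hypoxia-inducible factor, had the largest rise of all rows. It read 996 with DMSO at 12 h, 2137 with DMSO at 96 h, 507 with C646 at 12 h and 4124 with C646 at 96 h, which was 8.14-fold with C646 and 2.15-fold with DMSO. The C646 column was the lowest of the 4 at 12 h and the highest at 96 h. NDRG1, a stress-induced growth suppressor, read 2405 with DMSO at 12 h, 6621 with DMSO at 96 h, 2241 with C646 at 12 h and 11168 with C646 at 96 h, a rise of 4.98-fold with C646 and 2.75-fold with DMSO from nearly the same 12 h signal. ANGPTL4, a secreted inhibitor of lipoprotein lipase, read 469 with DMSO at 12 h, 828 with DMSO at 96 h, 484 with C646 at 12 h and 1839.6 with C646 at 96 h.

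The other hypoxia targets rose less far. BHLHE40 (BHLHB2 in the table), a repressor of the circadian clock, rose from 1264 to 3999.9 with C646 and from 1366 to 3159 with DMSO. P4HA1, which hydroxylates collagen, had log2 ratios of 1.39 and 0.87, DDIT4, an inhibitor of mTORC1, 1.27 and 0.64, and ADM, the vessel-relaxing peptide adrenomedullin, 1.11 and 0.66. KDM3A, BNIP3L, FAM162A and INSIG2 had C646 ratios between 0.85 and 1.02, each within 0.10 of its DMSO ratio. CA9, the carbonic anhydrase often used as a hypoxia marker, was dim, at 149 at 12 h and 263 at 96 h with C646 and 153 and 205 with DMSO.

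Their promoters were searched for ACGTG and GCGTG, the core of the hypoxia response element, on both strands. Of 21 matched promoters 17 (81.0%) held at least 1 of them, while 57.7% of the promoters of the comparison did, so that the words are common. Over the comparison, 4.60% of 5433 genes with a word and 5.63% of 3978 without one rose with C646. The promoters of ANKRD37 (chr4:185396591-185396840, plus strand) and BHLHE40 (chr3:4979187-4979436, plus strand) are shown with the matches in capitals, as the hypoxia targets of large rise with more than 1 match. Where the letters CACGTG occur, a match on each strand overlaps with the other.
ANKRD37: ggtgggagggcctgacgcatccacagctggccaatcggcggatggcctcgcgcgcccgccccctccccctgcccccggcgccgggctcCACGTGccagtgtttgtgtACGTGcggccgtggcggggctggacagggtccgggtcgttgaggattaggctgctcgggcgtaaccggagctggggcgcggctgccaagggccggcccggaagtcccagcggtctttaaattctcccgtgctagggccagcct
BHLHE40: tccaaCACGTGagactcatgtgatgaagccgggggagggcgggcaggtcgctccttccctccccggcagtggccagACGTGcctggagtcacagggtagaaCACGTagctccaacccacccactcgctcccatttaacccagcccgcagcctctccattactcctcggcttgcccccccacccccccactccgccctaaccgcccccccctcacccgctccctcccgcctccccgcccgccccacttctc

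Glycolysis genes rose in part. Of 22 measured, 7 rose with C646, against 4.09% of all rows, and 4 with DMSO, against 1.63%. Their medians were 0.29 and 0.33. ALDOC, an aldolase, rose from 2225 to 6110.4 with C646 and from 1662 to 4559 with DMSO, by the same log2 ratio of 1.46. SLC2A3, a glucose transporter, read 642 with DMSO at 12 h, 1256 with DMSO at 96 h, 235 with C646 at 12 h and 796 with C646 at 96 h. Its C646 ratio of 1.76 exceeded the DMSO ratio of 0.97, while both C646 columns lay below the DMSO column of the same time. SLC2A1, the main glucose transporter of tumour cells, read 3009 with DMSO at 12 h, 4031 with DMSO at 96 h, 3975 with C646 at 12 h and 6732 with C646 at 96 h, and both C646 columns were the higher.

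**Figure D3:**
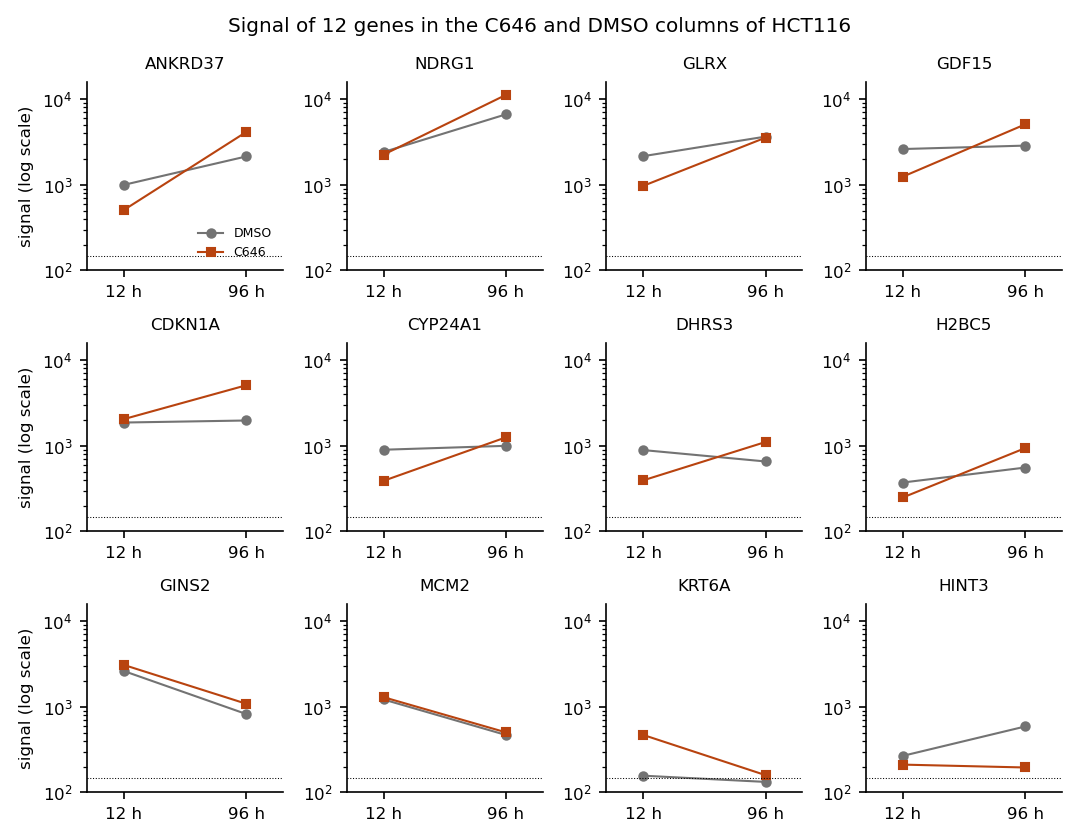
Signal on a log scale at 12 h and 96 h with DMSO (grey circles) and C646 (orange squares) for 12 genes, with the detection limit as a dotted line. Each point is the authors' mean of 2 replicates, with no error available. The C646 line crosses the DMSO line for ANKRD37, NDRG1, GDF15, CYP24A1, DHRS3 and H2BC5, and the lines of GINS2 and MCM2 run together.

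The largest rises beyond the hypoxia genes held junction, clock and stress genes, and TJP3 and GLRX were lower with C646 than with DMSO at 12 h and near it at 96 h. TJP3, a tight junction scaffold, read 499 with DMSO at 12 h, 1091 with DMSO at 96 h, 262 with C646 at 12 h and 1111 with C646 at 96 h, so that the columns met at 96 h and the C646 column was lower at 12 h. GLRX, a glutaredoxin, read 2152 with DMSO at 12 h, 3642 with DMSO at 96 h, 969 with C646 at 12 h and 3545 with C646 at 96 h, and also met DMSO at 96 h.

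DBP, a clock output factor, rose to 829.6 from 218 with C646 and to 717 from 340.3 with DMSO. YPEL5 had log2 ratios of 1.92 and 1.23. TNFRSF6B, a decoy receptor for FAS ligand, had 1.89 and 1.26, and its C646 columns were below DMSO at both times. ACTA2, a smooth muscle actin, read 351 with DMSO at 12 h, 586 with DMSO at 96 h, 294 with C646 at 12 h and 1109.9 with C646 at 96 h, and the C646 column at 96 h was the highest of the 4. Among the mesenchymal factors, 11 measured, ACTA2 was the 1 that rose (9.09%, against 4.09% of all rows). TAGLN and MYL9, both of the contractile apparatus, fell (18.2%, against 3.52%). Their log2 ratios were -1.18 and -0.70 with C646 and -0.57 and -0.72 with DMSO.

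More targets of p53 rose with C646 than with DMSO. Of 30 measured, 12 rose with C646, against 4.09% of all rows, and 2 with DMSO, against 1.63%, and 0 fell in either, with median log2 ratios of 0.41 and 0.05. The other 18 did not pass 1.5-fold with C646, and 7 of the 30 had a C646 ratio below 0. For 27 of the 30 the C646 ratio was above the DMSO ratio, and for 6 of them by at least 1.5-fold. At 12 h the list's median lay -0.09 from DMSO in log2 and at 96 h 0.21, so that the C646 columns passed from below to above.

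GDF15, a stress-induced cytokine that acts on appetite, read 2607 with DMSO at 12 h, 2859 with DMSO at 96 h, 1242 with C646 at 12 h and 5065 with C646 at 96 h. It rose 4.08-fold with C646 and 1.10-fold with DMSO, and its C646 column was the lowest at 12 h and the highest at 96 h. GADD45A, a growth arrest and repair protein, rose from 692 to 1610.3 with C646 and read 749.8 and 1055 with DMSO. TP53INP1, which promotes p53 activity and autophagy, rose from 235 to 653, and ended near the DMSO signal of 643. SFN (14-3-3σ), which holds cells before mitosis, had log2 ratios of 0.79 with C646 and 0.17 with DMSO, RPS27L 0.75 and 0.19, DDB2, a repair protein, 0.70 and 0.22, and TNFRSF10B, a death receptor, 0.62 and 0.30. RRM2B, CCNG1, BTG2 and PLK2 rose with C646 as well, at log2 ratios of 0.90, 0.70, 0.64 and 0.62, with DMSO ratios of 0.59, 0.51, 0.40 and 0.26.

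Some histone genes of the replication-dependent families rose with C646. Of 27 in the list 11 were above the limit. With C646 4 of these rose and 0 fell, against 4.09% and 3.52% of all rows. With DMSO 0 rose and 1 fell, against 1.63% and 1.64%. For all 11 the C646 ratio was above the DMSO ratio. H2BC5 (HIST1H2BD in the table) read 372 with DMSO at 12 h, 556 with DMSO at 96 h, 249 with C646 at 12 h and 938 with C646 at 96 h, H2AC6 (HIST1H2AC) rose from 185 to 448 with C646 and read 211 and 291 with DMSO, and H2BC12 (HIST1H2BK) and H2AC18 (HIST2H2AA3) had log2 ratios of 0.79 and 0.77 with C646 against 0.22 and 0.06. Copies of these genes are nearly identical, and which copy or which form of the RNA a probe reads was not checked here.

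To set the change with C646 apart from time in culture, the DMSO log2 ratio was subtracted from the C646 log2 ratio. A row can differ here through a gap to DMSO at 12 h, at 96 h or at both. The 2 differed by at least 1.5-fold at 156 rows (0.981%), with the C646 ratio higher at 105 (0.66%) and lower at 51 (0.321%). The excess on the higher side depended on the processing, since 545 were higher and 543 lower after normexp background correction with quantile normalization, and 1144 and 1200 at 1.2-fold. Of the 105 rows, 46 were at least 1.2-fold above DMSO at 96 h without being as far below it at 12 h, 37 were at least 1.2-fold below DMSO at 12 h only, and 22 were both. Of the 51 rows, 37 (72.5%) were at least 1.2-fold above DMSO at 12 h only. Another 12 were at least 1.2-fold below it at 96 h only, and 2 were both.

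Genes that moved with C646 but under 1.2-fold with DMSO were led by GDF15, CYP24A1 and CDKN1A. CYP24A1, which degrades vitamin D and is a target of its receptor, read 897 with DMSO at 12 h, 997 with DMSO at 96 h, 389 with C646 at 12 h and 1252 with C646 at 96 h, with a log2 ratio of C646 over DMSO of -1.21 at 12 h and 0.33 at 96 h. CDKN1A was near DMSO at 12 h (0.13) and above it at 96 h (1.37). TRIOBP, an actin bundling protein, read 862 with DMSO at 12 h, 848 with DMSO at 96 h, 425 with C646 at 12 h and 829 with C646 at 96 h, and so only the C646 column at 12 h lay apart. PLAU, the urokinase protease, rose to 1008 from 466 with C646 and read 624 and 700.3 with DMSO. H2AC19 (HIST2H2AA4 in the table) had log2 ratios of 0.70 and -0.25, the small Cajal body RNA SCARNA8 0.85 and -0.03, and GRIN2C, a glutamate receptor subunit, 0.91 and 0.05, from signals of 153 and 288 with C646.

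On the falling side KRT6A, a keratin of stressed epithelium, had the largest fall of all rows. It read 157 with DMSO at 12 h, 133 with DMSO at 96 h, 469 with C646 at 12 h and 159 with C646 at 96 h, a log2 ratio of -1.56 against -0.24, and the C646 column at 12 h stood alone above the other 3, of which the DMSO column at 96 h was under the limit. SLC16A9, a carboxylate transporter, did the same with 389 with DMSO at 12 h, 316 with DMSO at 96 h, 805 with C646 at 12 h and 320.0 with C646 at 96 h. MIX23 (CCDC58 in the table), a mitochondrial protein, read 2329 with DMSO at 12 h, 2264 with DMSO at 96 h, 2623 with C646 at 12 h and 1335 with C646 at 96 h, and the C646 column at 96 h stood alone below the others. FJX1 read 473 at 12 h and 311 at 96 h with C646 against 502 and 522 with DMSO, and TRMT10C (RG9MTD1), a mitochondrial tRNA methyltransferase subunit, 719 at 12 h and 446 at 96 h with C646 against 697 and 652 with DMSO, and both again were low with C646 at 96 h alone.

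HSPA1B, an inducible HSP70, read 5665 with DMSO at 12 h, 4767 with DMSO at 96 h, 9247 with C646 at 12 h and 5055 with C646 at 96 h, and RCC1, which loads RAN with GTP, read 264 at 12 h and 154 at 96 h with C646 and 159 and 139 with DMSO, and in both genes each C646 column was above the DMSO column of its time. ACTG2, a smooth muscle actin, passed the limit with C646 at 12 h only and was at least 1.28-fold lower at 96 h. Probes of near-identical families, such as HSPA1B, the actins and ALPP below, may read more than 1 gene, which was not checked here. The rows RBM14 and TMEM137 both belong to RBM14, a transcriptional co-activator, and disagreed. RBM14 fell from 2521 to 968 with C646 and from 1764 to 830.5 with DMSO, while TMEM137 went from 1039 to 586 with C646 and stayed at 298 and 289 with DMSO.

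**Figure D4:**
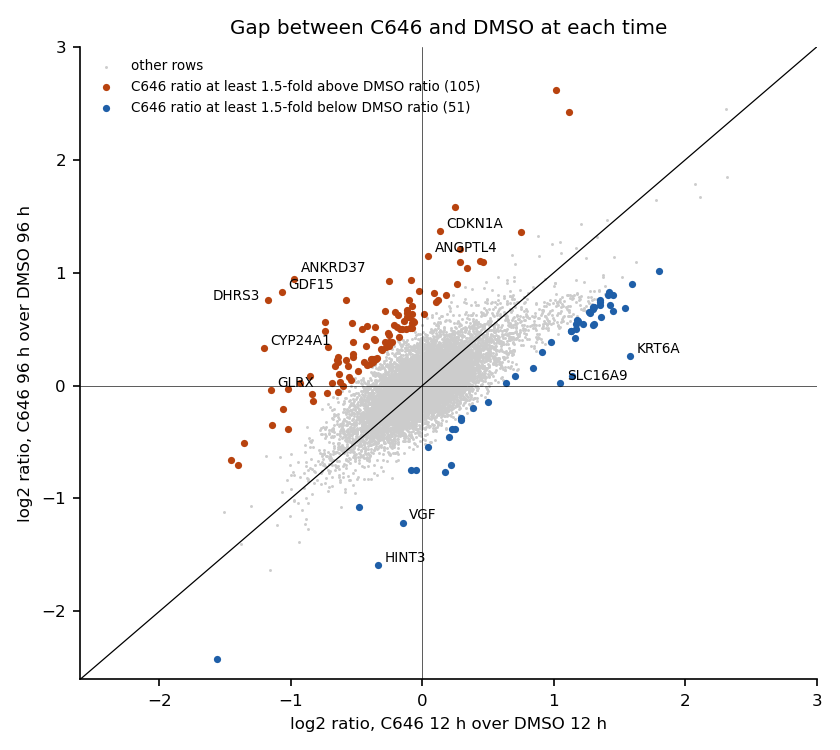
Log2 ratio of C646 over DMSO at 12 h (x axis) against the same ratio at 96 h (y axis) for 15902 rows of the HCT116 comparison, with the 105 rows whose 96 h over 12 h ratio was at least 1.5-fold higher with C646 than with DMSO in orange and the 51 rows at least 1.5-fold lower in blue. On the solid line the gap was equal at both times. DHRS3, GDF15 and ANKRD37 lie left of 0 at 12 h and above 0 at 96 h, and CDKN1A lies near 0 at 12 h.

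Other genes moved with DMSO and stayed within 1.2-fold with C646. HINT3, a nucleotide hydrolase, read 267 with DMSO at 12 h, 588 with DMSO at 96 h, 211 with C646 at 12 h and 195.4 with C646 at 96 h, so that the DMSO column at 96 h stood alone. VGF, a secreted neuropeptide precursor, read 1049 with DMSO at 12 h, 1846 with DMSO at 96 h, 946 with C646 at 12 h and 796 with C646 at 96 h and did the same. ZFP36L1, which destabilises mRNA, had log2 ratios of 0.67 with DMSO and 0.21 with C646. ALPP, placental alkaline phosphatase, read 1969 with DMSO at 12 h, 3216 with DMSO at 96 h, 5044 with C646 at 12 h and 4888 with C646 at 96 h, DTWD2 589 with DMSO at 12 h, 942 with DMSO at 96 h, 1449.7 with C646 at 12 h and 1528 with C646 at 96 h and MAGT1, a magnesium transporter, 1440.0 with DMSO at 12 h, 2246 with DMSO at 96 h, 3352 with C646 at 12 h and 3573 with C646 at 96 h. In these last 3 both C646 columns lay above both DMSO columns.

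Of the 5 such genes that fell with DMSO, TUBA1B, an α-tubulin, read 21967 and 13808 with DMSO against 19683 at 12 h and 17743 at 96 h with C646, PSAT1, of serine synthesis, 1243 and 816 with DMSO against 1398 at 12 h and 1213 at 96 h with C646, and the repressor E2F7 405 and 263 with DMSO against 354 at 12 h and 298 at 96 h with C646. ORC3 (ORC3L in the table), of the origin recognition complex, had log2 ratios of -0.59 with DMSO and -0.20 with C646, and the 5S RNA row RNA5S9 (RN5S9) of -1.05 and 0.25. DHRS3, a retinaldehyde reductase induced by retinoic acid, and SCARNA13, a small Cajal body RNA, were the 2 rows that rose with C646 and went at least 1.2-fold down with DMSO. DHRS3 read 889 with DMSO at 12 h, 655 with DMSO at 96 h, 394 with C646 at 12 h and 1105 with C646 at 96 h, log2 ratios of 1.49 with C646 and -0.44 with DMSO. SCARNA13 read 764 with DMSO at 12 h, 628 with DMSO at 96 h, 465 with C646 at 12 h and 796 with C646 at 96 h.

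In a view chosen after the values were seen, 135 rows were at least 2-fold above DMSO with C646 at 12 h, and 135 of them were above DMSO at 96 h too. Their median gap was 1.17 in log2 at 12 h and 0.73 at 96 h, their median C646 ratio was -0.09 and their median DMSO ratio was 0.38. ALPP, DTWD2, MAGT1 and TMEM137 were among them, and 30 of the 51 rows with the lower C646 ratio were too. Unnamed transcripts, open reading frames and pseudogenes were 48.9% of the 135 rows and 27.3% of all rows. The 12 h C646 and DMSO columns that chose these rows are also part of their C646 and DMSO ratios, so neither ratio is independent of the choice. With ICG-001, read over the same DMSO columns, their median gap was 0.74 at 12 h and 0.62 at 96 h. The 12 h gap with ICG-001 shares the 12 h DMSO column with the choice and is not independent of it either.

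Part of the junction and adhesion genes rose with C646. Of 28 measured, 11 rose with C646, against 4.09% of all rows, and 3 with DMSO, against 1.63%, 0 fell in either, and the medians were 0.40 and 0.23, with the C646 ratio the higher for 25. ITGA2, a collagen receptor subunit, read 554 with DMSO at 12 h, 819 with DMSO at 96 h, 432 with C646 at 12 h and 1084 with C646 at 96 h. CDH1, E-cadherin, rose from 885 to 1534 with C646 and read 977 and 1185 with DMSO, CLDN3, a tight junction claudin, had log2 ratios of 0.89 and 0.22, JUP, which links cadherins to the cytoskeleton, 0.92 and 0.52, CGN, the tight junction adaptor cingulin, 1.05 and 0.82, and ITGB4, of hemidesmosomes, 1.00 and 0.49. ELF3, an epithelial transcription factor, rose from 555 to 1604 with C646 and from 763 to 1129.8 with DMSO, log2 ratios of 1.53 and 0.57. The colon epithelial markers, which include CDH1 and ELF3, did not rise together. Of the 8 above the limit 2 rose with C646, 4 had a C646 ratio above 0 and 4 below, and the median was -0.11.

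Some immediate early, interferon and lysosome genes rose, more of them with C646 than with DMSO, where 4.09% and 1.63% of all rows rose. Of 26 AP-1 and ERK output genes, 8 rose with C646 and 5 with DMSO, with medians of 0.48 and 0.33. EGR1, an immediate early factor, read 1361 with DMSO at 12 h, 2554 with DMSO at 96 h, 616 with C646 at 12 h and 2007 with C646 at 96 h, and both C646 columns were the lower. DUSP5, which dephosphorylates ERK in the nucleus, had log2 ratios of 1.06 and 0.92, and KLF4, a factor of colon differentiation, 1.28 and 1.08. Of 31 interferon-stimulated genes, 9 rose with C646 and 4 with DMSO (medians 0.43 and 0.25, the first 0.24 without the filter on dim rows), among them IRF9 (1.01, DMSO 0.71) and STAT2 (0.91, DMSO 0.52), which form the interferon-response complex, and TAP1, the peptide transporter, at 0.89 against 0.28. Of 27 autophagy and lysosome genes 7 rose with C646 and 3 with DMSO (medians 0.38 and 0.18), with GABARAPL1, of the autophagosome membrane, going from 349 to 919.9 with C646 and from 502 to 774 with DMSO.

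**Figure D5:**
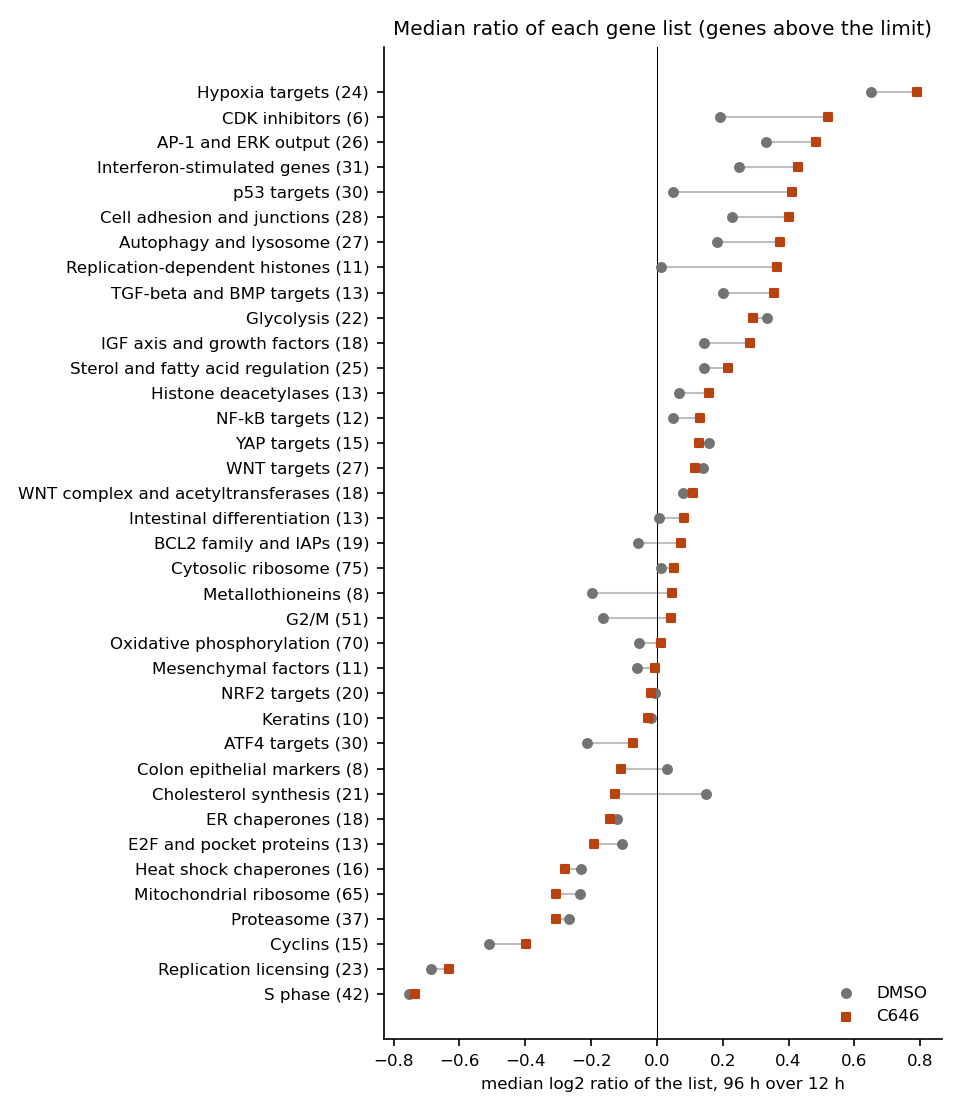
Median log2 ratio of 96 h over 12 h with DMSO (grey circles) and C646 (orange squares) for gene lists with at least 5 genes above the limit, whose number is in brackets. Lists are ordered by the C646 median, from S phase at -0.74 to hypoxia targets at 0.79. The cholesterol list is among several whose circle and square lie on opposite sides of 0.

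WNT target genes were mostly not called. Of 27 measured, 4 rose with C646 (SOX9, ID2, PLAUR and JUN; 14.8% against 4.09% of all rows), 1 fell (AXIN2; 3.70% against 3.52%), 20 had a C646 ratio above 0 and 7 below, and the median log2 ratio was 0.12, against 0.14 with DMSO, and some of these genes were examined by the study in the same samples. AXIN2, the feedback inhibitor of the pathway, read 766 with DMSO at 12 h, 643 with DMSO at 96 h, 827 with C646 at 12 h and 514 with C646 at 96 h, and its C646 column was the highest at 12 h and the lowest at 96 h. SOX9, a factor of the crypt base, read 1058 with DMSO at 12 h, 1522 with DMSO at 96 h, 399 with C646 at 12 h and 932 with C646 at 96 h, and was below DMSO at both times. MYC had log2 ratios of 0.12 with C646 and 0.40 with DMSO from signals of 3623 at 12 h and 3929 at 96 h with C646 and 3267 and 4307 with DMSO, and LGR5, ASCL2 and LEF1 were under the limit in both C646 columns.

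Among mitochondrial ribosome, proteasome and heat shock genes, those called with C646 fell, while cytosolic ribosome genes were mostly not called. Where 3.52% of all rows fell with C646 and 1.64% with DMSO, of 65 mitochondrial ribosome genes, 9 fell with C646 and 3 with DMSO (medians -0.31 and -0.23), and of 37 proteasome genes, 7 and 3 (medians -0.31 and -0.27), with 0 rising in each list. MRPL20 had log2 ratios of -0.93 and -0.81, and PSME3, a proteasome activator, -1.06 and -0.86. Of 16 heat shock chaperones 5 fell with C646 and 3 with DMSO, among them HSPH1, an HSP110, from 5326 to 2923 with C646 and from 5053 to 2914 with DMSO. Of 75 cytosolic ribosome genes, RPS7, RPL34 and RPL29 fell and RPL37 rose with C646, and the median was 0.05, and of 70 oxidative phosphorylation genes NDUFA6 and UQCR11 (UQCR in the table) fell, with a median of 0.01.

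Cholesterol synthesis genes mostly had a lower ratio with C646 than with DMSO. Among 21 cholesterol synthesis genes 1 rose with C646, TM7SF2, a sterol reductase, and 0 fell, against 4.09% and 3.52% of all rows. The median log2 ratio of the 21 was -0.13 with C646 and 0.15 with DMSO, and the C646 ratio was the lower for 17. HMGCS1, an early enzyme of the pathway, read 1431 with DMSO at 12 h, 1676 with DMSO at 96 h, 1648 with C646 at 12 h and 1224 with C646 at 96 h, with the C646 column at 96 h the lowest of the 4. Among 30 ATF4 targets, DDIT4 and DDIT3 rose and SLC7A5, SLC3A2 and WARS1 (WARS in the table) fell with C646. These were 6.67% and 10.0% of the list, against 4.09% and 3.52% of all rows. The C646 ratio was the higher for 26 of the 30. DDIT3, the stress factor CHOP, read 414 with DMSO at 12 h, 405 with DMSO at 96 h, 383 with C646 at 12 h and 644 with C646 at 96 h. Among 20 NRF2 targets, 12 NF-κB targets and 15 YAP targets 0 were called with C646. For lists this short that is near the 7.61% of all rows. Of 8 metallothioneins 1 rose, MT1X, from 1822 to 2808.

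The remaining lists held from 1 to 4 risen genes each, where 4.09% of all rows rose with C646 and 3.52% fell. Of 13 TGF-β and BMP targets, ID1, ID2 and SMAD3 rose (23.1%), at log2 ratios of 0.72, 1.00 and 0.98 against 0.20, 0.35 and 0.44 with DMSO. Of 18 genes of the IGF axis and other growth factors, GDF15, IRS2, TGFA and IGFBP6 rose (22.2%). Of 25 sterol and fatty acid regulators INSIG2, ACSS2 and MYLIP rose (12.0%), of 19 BCL2 family and IAP genes BCL2L1, the survival factor BCL-XL, from 1109 to 1853, and of 18 ER chaperones CREB3L2 rose while SDF2L1 and CRELD2 fell. Of 10 keratins KRT15 rose and KRT6A fell, and of 13 intestinal differentiation genes KLF4 and GCNT3 rose (15.4%).

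By correlation, the C646 change in HCT116 was nearer to the DMSO change in HCT116 than to the ICG-001 change in HCT116 or the C646 change in PANC1. None of these shares a column with it, and the DMSO change in PANC1 was not correlated with it. With ICG-001 in HCT116, 1171 of 15967 rows were called (7.33%), 697 higher (4.37%) and 474 lower (2.97%). In PANC1 84 of 16045 rows were called with C646 (0.524%), 70 higher (0.436%) and 14 lower (0.0873%), and 217 of 15780 with DMSO (1.38%), 162 higher (1.03%) and 55 lower (0.349%). The correlation of log2 ratios with those of C646 in HCT116 was r = 0.44 for ICG-001 (rho 0.42, 14703 rows) and 0.34 for C646 in PANC1 (rho 0.32, 14018 rows), as a description across rows. The median of the S phase genes was -0.24 with ICG-001 and -0.08 in PANC1, that of the G2/M genes -0.44 and -0.14, that of the hypoxia targets 0.29 and 0.11, and that of the p53 targets 0.08 and 0.03, each over the genes measured with C646 in HCT116. ANKRD37 and CDKN1A had log2 ratios of 0.40 and 0.13 with ICG-001 and -0.13 and 0.00 in PANC1. Other genes named above for their C646 rise also rose at least 2-fold with ICG-001. TNFRSF6B, YPEL5, TJP3, GLRX, DBP and NDRG1 had 1.55, 1.27, 1.27, 1.23, 1.23 and 1.12, and DHRS3 and TRIOBP 1.03 and 1.01. ANGPTL4, GDF15, ACTA2 and CYP24A1 did not, at 0.68, 0.58, 0.36 and -0.43. In PANC1 GDF15 rose at least 2-fold with C646, while ANGPTL4 and ACTA2 had log2 ratios of 0.35 and 0.08. H2BC5 had -0.82 with ICG-001, where it was 1.91 with C646, and 0.82 in PANC1.

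Among rows that the table gives by a locus, open reading frame or cluster name, the largest rise was that of LOC643031, the mitochondrial pseudogene MTND5P10, from 1284 to 5061 with C646 and from 2003 to 6134 with DMSO. C18orf56, now TYMSOS, an RNA antisense to the thymidylate synthase gene, had log2 ratios of 1.43 with C646 and 0.52 with DMSO, and TYMS itself -0.60 and -0.38. C20orf100 (TOX2), C4orf34 (SMIM14) and a row with no gene name had log2 ratios of 1.36, 1.35 and 1.33 with C646. Of the falls, LOC646817 (SETSIP), LOC642031, LOC644877 (CACYBPP2), LOC389049 and another row with no gene name had C646 ratios between -1.25 and -1.07. The last was the 1 of the 5 with a C646 ratio at least 1.5-fold below its DMSO ratio, at -1.23 against -0.53. Probes of pseudogenes and gene copies, such as MTND5P10, SETSIP and CACYBPP2, may also read the parent gene, which was not checked here.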

How the data were processed

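Total RNA of HCT116 and PANC1 cells was read on Illumina expression BeadChips and exported by the authors from GenomeStudio, as the submitters' processing notes name it. The deposited values were linear intensity per gene row, quantile normalized by the authors with the background left in and averaged by them over 2 independent replicates in each group used here. Whether the cell lines were normalized together is not given in the sources used here. Detection p-values were not used. The 12 columns were mapped to groups by their names, and each group had 1 column, so no test was run. Signals were used as deposited, a detection limit was set from the column's own distribution (its peak plus a set multiple of the background SD), and log2 ratios of 96 h over 12 h were taken. Calls were made at 1.5-fold.

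Members and gene lists were chosen with earlier results of these data known. Genes were named by rule: the 12 largest rises and falls with C646; up to 8 in each direction that moved with C646 and under 1.2-fold with DMSO; up to 6 that moved with DMSO and under 1.2-fold with C646; those that moved in opposite directions with C646 and DMSO; called and role-defining members of each list; the target genes of the drug and pathway; and 5 rows each way under locus, open reading frame or cluster names. Values of 2 genes are not reported here. Older symbols were updated through RefSeq, which matched 17755 rows by current symbol, 3305 by an older symbol and 2669 by gene ID. A further 144 matched an ambiguous older symbol and 10814 none. Promoters came from RefSeq.

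Alternatives were a fold of 1.2 or 2, no filter, a limit at 5 SD, rows above the limit in all 4 columns, normexp (offset 16) with quantile normalization in limma 3.58.1, centred ratios, and quantile normalization over 12 columns. The calls were run on simulated data in which 200 bright rows were given 2-fold changes, with noise of the SD of dim rows (0.0719). All 200 were called, with 0 false calls. The changes exceeded the 1.5-fold threshold and no replicate spread was simulated. This checked the calculation only and not how reliable the calls are. Arrays give no read depth, and their number limits the precision. Python 3.11.15, numpy 2.4.6, pandas 2.3.3, scipy 1.17.1, matplotlib 3.10.9 and R 4.3.3 were used.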

Additional observations from a re-analysis of the deposited data

Results flagged for a closer look

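DHRS3 rose with C646 and went down with DMSO between 12 h and 96 h, and its log2 C646 ratio exceeded its DMSO ratio by 1.93. SCARNA13 did the same with a difference of 1.06. The cholesterol synthesis list had a median log2 ratio below 0 with C646 and above 0 with DMSO, both at least 0.1 from 0. The median of the per-gene differences over its 21 genes was -0.21. Other lists also had medians on opposite sides of 0 but with 1 of them nearer to 0, such as G2/M at 0.04 with C646 and -0.17 with DMSO. None of these differences between C646 and DMSO was tested, since each column is 1 mean.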

How the results depend on the processing

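At a fold of 1.2 and of 2, the rows called with C646 numbered 4986 and 174 (2622 and 112 higher, 2364 and 62 lower), with DMSO 3642 and 49 (1954 and 22 higher, 1688 and 27 lower), and for the difference between the ratios 2344 and 22 (1144 and 17 higher, 1200 and 5 lower). In PANC1 they numbered 1495 and 8, and with ICG-001 5025 and 196. After normexp background correction with quantile normalization, the calls were 2919 with C646 (1538 higher, 1381 lower), 1485 with DMSO (758 and 727), 1088 for the difference (545 and 543) and 3013 with ICG-001. This setting changed background and normalization together, and the cause was not tested. The other alternatives that were run kept each of these counts within 1.5 times. For PANC1 normexp, and for PANC1 and ICG-001 the limit in all 4 columns, were not run. The median log2 C646 ratio of the colon epithelial markers, -0.11, turned to 0.0333 without a filter on dim rows, 0.0240 with the limit at 5 SD and 0.0240 over rows above the limit in all 4 columns, and that of the keratins, -0.03, to 0.07 and 0.20 under the last 2. Without the filter on dim rows, the median fell from 0.43 to 0.24 for interferon-stimulated genes, from 0.37 to 0.09 for histones, from 0.35 to 0.15 for TGF-β and BMP targets and from 0.28 to 0.12 for the IGF axis. Of 70 named values, 50 moved under normexp and 3 under quantile normalization over 12 columns, and 0 changed direction. No paired analysis was possible because each deposited column is already a mean of replicates, and leaving out a replicate was not run for the same reason. Signal near the background limits the ratios of dim rows.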

Other observations

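Gene lists written after the values were seen described 3 further groups. Of 57 nucleolar and ribosome assembly factors measured, 23 fell with C646, against 3.52% of all rows, and 6 with DMSO, against 1.64%, 0 rose, and the median log2 ratios were -0.56 and -0.26, with the C646 ratio the lower for 48. MRTO4, a factor of the large ribosomal subunit, read 675 with DMSO at 12 h, 379 with DMSO at 96 h, 1046 with C646 at 12 h and 418 with C646 at 96 h. NOLC1, a nucleolar phosphoprotein, went from 1322 to 610.2 with C646 and from 1130.0 to 794 with DMSO, and NOP16 had log2 ratios of -1.10 and -0.75. The list's median gap to DMSO was 0.20 at 12 h and -0.06 at 96 h, and its median ratio with ICG-001 was -0.44.

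Of 13 SR splicing factors measured, 6 fell with C646, against 3.52% of all rows, and 3 with DMSO, against 1.64%. The median log2 ratio of the list was -0.45 with C646 and -0.55 with DMSO. Gene by gene, the C646 ratio was the lower for 8 of the 13 and the higher for 5, and the median of the per-gene differences was -0.18. Among those that fell with C646 was SRSF3 (SFRS3 in the table), from 819 to 349 with C646 and from 851 to 498 with DMSO. Of 152 small nucleolar and Cajal body RNAs above the limit, 13 rose (8.55%, against 4.09% of all rows) and 6 fell (3.95%, against 3.52%) with C646, and 2 rose and 0 fell with DMSO. Their median log2 C646 ratio was -0.09, with 93 of the 152 below 0 and 92 below their DMSO ratio. Of those that rose, SNORD3D, a U3 RNA of ribosomal RNA processing, read 445 with DMSO at 12 h, 406 with DMSO at 96 h, 530.2 with C646 at 12 h and 1215 with C646 at 96 h, and SNORA12 read 2703 with DMSO at 12 h, 2740.4 with DMSO at 96 h, 1863 with C646 at 12 h and 4029 with C646 at 96 h. Both had the C646 column at 96 h as the highest of the 4. Copies of U3 are nearly identical, and which copy a probe reads was not checked here. For the small RNAs, which form of the RNA was read was not checked either.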
